A study of Mus musculus with 8 samples.

Results

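The genes described here encode the 8 receptor chains of the common gamma chain cytokine family that were listed for this report, Il2ra, Il2rb, Il2rg, Il4ra, Il7r, Il9r, Il15ra and Il21r, out of 29924 gene names on the array. They were found by their gene name, which matched 12 probes, and a gene with more than 1 probe is represented by the probe with the highest mean. Il2rg encodes the common gamma chain itself, which pairs with a private chain to form the receptors for IL-2, IL-4, IL-7, IL-9, IL-15, and IL-21. These receptors signal through the kinases JAK1 and JAK3 and through STAT proteins. In T cells, IL-7 keeps naïve cells alive, IL-2 maintains Treg cells and opposes the TFH program, and IL-4 and IL-21 are the main cytokines that TFH cells deliver to B cells of the germinal center.

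Expression was measured on 8 one-color Agilent arrays of cells sorted from peripheral lymph nodes (pLN) of B6.Cg-Foxp3<tm1Mal> mice, in which Foxp3 expressing cells carry EGFP, taken on d12 and d25 after mice had received KLH with alum subcutaneously. The 4 cell types were naïve CD4 T cells (GFP-PD1-GL7-), TFH cells (GFP-PD1hiGL7+), Treg cells (GFP+PD1-GL7-), and TFR cells (GFP+PD1hi, GL7+ or GL7-), so that the gate of TFR cells was wider than that of TFH cells. By the labels, each array holds RNA from 1 pool of 8 to 15 mice of both sexes at 8 to 14 weeks of age, although the study's methods also name smaller pools and another age range, and there is 1 array per cell type and day. All 4 arrays of d12 lay on 1 slide, whereas naïve and TFH cells of d25 shared another slide and Treg and TFR cells of d25 yet another, so that day and slide cannot be told apart. TFH can therefore be compared with naïve cells, and TFR with Treg cells, within a slide at either day, but a comparison of Foxp3+ with Foxp3- cells crosses slides at d25.

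Levels are given as normalized signal in relative units (RU), scaled to a 75th percentile of 1500 with a floor of 20, first for d12 and then for d25. Per array, 46.3% to 50.4% of the probes were well above background by the criterion of the scanning software, and the number of arrays limits the precision. Differences are on the log2 scale as estimate ± standard error over both days (n = 2 arrays of each cell type). Adjusted p-values are from limma with Benjamini-Hochberg adjustment over all 15763 genes tested, and a call is an adjusted p under 0.05. Signals of different probes are not comparable as amounts of mRNA, and a lower signal in a sorted population can reflect fewer expressing cells or less RNA per cell, which cannot be told apart.

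Markers of the labelled populations were measured on each array. Cd3e and Cd4 were bright on all 8 arrays, Foxp3 was at 37266 to 49262 RU in Treg and TFR cells against 66 to 358 RU in naïve and TFH cells, and Cxcr5 was at 35322 to 237465 RU in TFH and TFR cells against 1400 to 4384 RU in naïve and Treg cells. Ikzf2, a marker of many Treg cells, did not follow Foxp3, since it was at 10506 and 10814 RU in TFH cells, 9925 and 11103 RU in Treg cells, 22902 and 28617 RU in TFR cells, and 81 and 145 RU in naïve cells. Of 7 B cell markers, 3 to 6 were well above background per array, and Pax5 was at 20 RU and not well above background on any array. The summed level of these markers was 2188 RU in TFH cells at d12, the lowest value, and 13856 RU in TFH cells at d25, the highest, compared to 4702 to 8897 RU on the other 6 arrays. The sums of 6 myeloid markers (17647 to 30244 RU) and of 5 markers of CD8 T and NK cells (2979 to 7680 RU) varied less between arrays. Most of the myeloid sum was Itgam (13020 to 28504 RU), while Cd68 ranged from 368 to 5098 RU and Lyz2 from 205 to 1258 RU. Cd79b was the largest part of each B cell sum (1043 to 7547 RU). Ms4a1 (65 RU), Cd79a (124 RU), and Blnk (153 RU) were lowest in TFR cells at d12. Cd79b and Fcer2a were lowest in TFH cells at d12. Single markers in these lists moved with the follicular comparison, in both directions. Cd68 was higher by 2.98 in TFH than in naïve and by 2.76 in TFR than in Treg cells, and Klrb1c by 4.1 and 3.92, all of them called. Cd8b1 was called lower in the same comparisons, by -1.08 and -0.96. Also called lower were Cd8a in TFR than in Treg cells (-1.18), and Itgam (-0.51) and Csf1r (-0.38) in TFH than in naïve cells. The part of other cell types in the differences of the receptor genes was not tested.

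**Figure D1:**
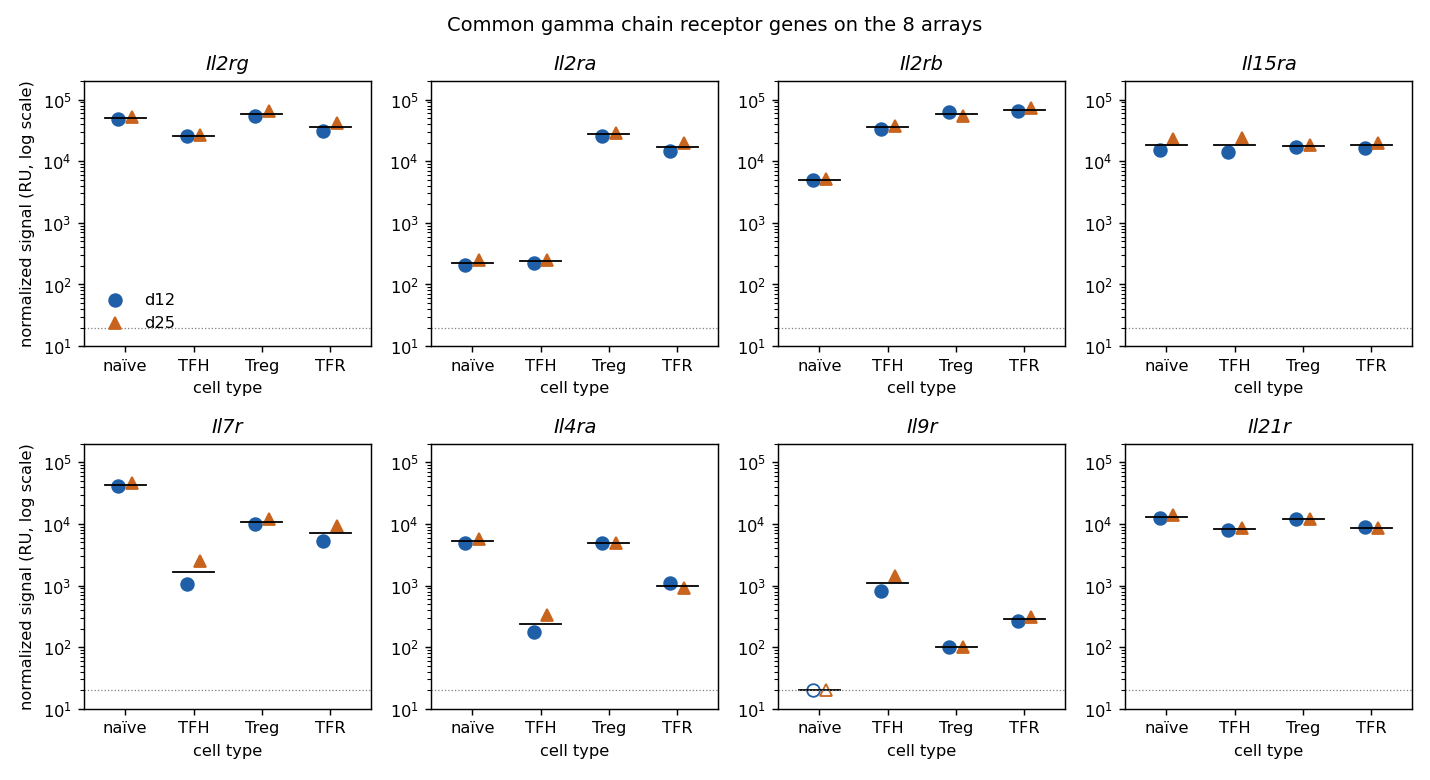
Normalized signal in RU on a log scale for each receptor gene by cell type, with 1 point per array (circles d12, triangles d25), the geometric mean of both days as a bar, and the floor of 20 RU as a dotted line. Open symbols mark a signal not well above background, which was the case for Il9r in naïve cells. Il2ra separates Foxp3+ from Foxp3- cells, Il7r and Il4ra are lowest in TFH cells, Il9r is highest in TFH cells, and Il15ra is nearly level.

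TFH cells differed from naïve CD4 T cells in 6 of the 8 receptor genes, while 46.5% of all genes tested were called in this comparison. TFR cells differed from Treg cells in 5 of 8 (39.6% of all genes), TFR from TFH cells in 5 of 8 (22.1% of all genes), and Treg from naïve cells in 4 of 8 (9.88% of all genes). For TFR against naïve cells the count was 7 of 8 (53.1% of all genes), and for Treg against TFH cells it was also 7 of 8 (39.8% of all genes). In the comparisons of TFH with naïve, TFR with Treg, TFR with naïve, and Treg with TFH cells, these shares are read against a high background. The median size of the difference over the 8 genes was 1.88 for TFH against naïve cells and 0.65 for TFR against Treg cells, as compared to 0.44 and 0.38 over all genes tested. All 6 calls of TFH against naïve cells were kept when any 1 array was left out. For TFR against Treg cells the count fell to 2 without the d12 Treg, 1 without the d12 TFR, 1 without the d25 Treg, and 3 without the d25 TFR array. For TFR against TFH cells it fell to 1 without the d12 TFR and 2 without the d25 TFR array, and for Treg against naïve cells to 2 without the d12 Treg array. Without the filter on dim genes, 1 receptor gene was called between TFR and TFH cells and 2 between Treg and naïve cells.

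The sequences upstream of 3 genes are shown because these were the receptor genes with the widest range among cell types, apart from Il9r, whose given window lies inside the gene. They are taken from RefSeq in GRCm38.p6 and end at the outermost annotated start of the gene. Capitals mark matches to the motifs searched, and they occur in Il7r. Il2ra is shown from chr2:11642542-11642791 (+ strand), Il4ra from chr7:125552021-125552270 (+ strand), and Il7r from chr15:9529942-9530126 (- strand).
Il2ra: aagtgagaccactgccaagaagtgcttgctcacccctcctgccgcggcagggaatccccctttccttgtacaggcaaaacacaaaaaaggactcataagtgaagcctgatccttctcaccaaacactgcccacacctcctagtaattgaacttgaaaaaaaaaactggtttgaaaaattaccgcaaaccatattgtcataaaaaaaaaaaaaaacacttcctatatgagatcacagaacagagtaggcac
Il4ra: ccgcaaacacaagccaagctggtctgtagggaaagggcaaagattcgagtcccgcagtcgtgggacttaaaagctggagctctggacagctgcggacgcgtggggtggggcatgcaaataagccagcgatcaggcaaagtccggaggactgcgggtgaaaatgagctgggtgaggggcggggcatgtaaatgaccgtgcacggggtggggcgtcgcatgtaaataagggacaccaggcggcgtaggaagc
Il7r: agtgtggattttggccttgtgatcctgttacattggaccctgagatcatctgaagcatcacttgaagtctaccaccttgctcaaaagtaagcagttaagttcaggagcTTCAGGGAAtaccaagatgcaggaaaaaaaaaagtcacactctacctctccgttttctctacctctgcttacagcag

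The windows of 7 of the 8 genes, each with 250 bases before and 50 bases after a RefSeq start, were searched on both strands for TTCNNNGAA, the usual STAT motif, for TTC and GAA with 4 bases between them, a spacing preferred by STAT6, and GTAAACA, a forkhead motif. No match overlapped another. Il7r had a TTCNNNGAA match, whose first base lies at position -142 from the start site of its window. That site lies 65 bases inside the outermost annotated start, so that the match begins 77 bases before the end of the stretch shown. Il21r had a GTAAACA match on the opposite strand that begins at position -38. No match to these letters was found in the windows of Il2ra, Il2rg, Il4ra, Il9r, and Il15ra. Over 32817 windows of the same length, 8.29% held TTCNNNGAA, 6.94% the form with 4 bases between, and 3.65% GTAAACA. A match is a description of the letters and no evidence of binding.

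Il2rg, which encodes the chain shared by all of these receptors, gave a bright signal in each cell type and was lower in the follicular populations. Its probe (chrX:98460130-98460189 in NCBI37) gave 47945 and 51841 RU in naïve cells, 25569 and 26284 RU in TFH cells, 54242 and 64496 RU in Treg cells, whereas TFR cells gave 31000 and 41313 RU. Both follicular populations lay below both non-follicular populations without overlap. Il2rg was lower by -0.94 ± 0.12 in TFH than in naïve cells (1.92-fold, adjusted p = 0.00368) and by -0.72 ± 0.12 in TFR than in Treg cells (1.65-fold, adjusted p = 0.0105). Treg and naïve cells did not differ by the test (0.25 ± 0.12, adjusted p = 0.267), nor did TFR and TFH cells (0.47 ± 0.12, adjusted p = 0.0527). The last of these was close to the threshold, and TFR cells were above TFH cells at both days by 0.28 and 0.65. It passed with normexp background correction (adjusted p = 0.0286), software flags alone (adjusted p = 0.0476), genes well above background on all arrays (adjusted p = 0.0412), or a trended and robust variance prior (adjusted p = 0.0187). The call for TFR against Treg cells was lost without the d12 Treg (adjusted p = 0.0629), the d12 TFR (adjusted p = 0.0658), or the d25 Treg array (adjusted p = 0.0709).

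Il2ra, which encodes CD25, the chain that gives the IL-2 receptor its high affinity and that is a target of Foxp3, was the gene with the widest difference between Foxp3+ and Foxp3- cells. Naïve cells were at 206 and 245 RU, TFH cells at 226 and 249 RU, Treg cells at 25919 and 28676 RU, and TFR cells at 14489 and 20078 RU (probe at chr2:11614744-11614803 in NCBI37). The signals of TFH and naïve cells were well above background but low and overlapped. Il2ra was 121-fold higher in Treg than in naïve cells (6.92 ± 0.12, adjusted p = 0.000304) and 71.8-fold higher in TFR than in TFH cells (6.16 ± 0.12, adjusted p = 0.000453). Within the slide of d12, these differences were 6.97 and 6.0. For TFH against naïve cells the difference was 0.08 ± 0.12 with a 95% interval from -0.22 to 0.38. TFR cells were below Treg cells at both days, by -0.68 ± 0.12 (1.60-fold, adjusted p = 0.0114). This call was lost without the d12 Treg (adjusted p = 0.0802), the d12 TFR (adjusted p = 0.0644), or the d25 Treg array (adjusted p = 0.0539).

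Il2rb encodes the chain shared by the receptors for IL-2 and IL-15, which carries most of the signal, and it was higher in all 3 other populations than in naïve cells. Naïve cells were at 4934 and 5090 RU, TFH cells at 33561 and 37513 RU, Treg cells at 63545 and 54410 RU, and TFR cells at 64318 and 73711 RU (probe at chr15:78311109-78311168 in NCBI37). The difference from naïve cells was 2.82 ± 0.13 for TFH (7.08-fold, adjusted p = 0.000252), 3.55 ± 0.13 for Treg (11.7-fold, adjusted p = 0.000885), and 3.78 ± 0.13 for TFR cells (13.7-fold, adjusted p = 0.000119). TFH cells were thus above naïve cells in Il2rb while the Il2ra signals of both overlapped, and Treg and TFR cells were above naïve cells in both genes. TFR and Treg cells did not differ by the test (0.23 ± 0.13, adjusted p = 0.222), with the days at 0.02 and 0.44. TFR cells were above TFH cells by 0.96 ± 0.13 (adjusted p = 0.0101), a call that was lost without the d12 TFR (adjusted p = 0.0612) or the d25 TFR array (adjusted p = 0.0795) and with slide as a block (adjusted p = 0.0516). The second probe (chr15:78309771-78309830 in NCBI37) gave 5000 and 5397 RU in naïve, 25506 and 25987 RU in TFH, 64846 and 62643 RU in Treg cells, whereas TFR cells gave 61252 and 66546 RU, and thus naïve cells again lowest, TFH cells in between, and both Foxp3+ populations highest. The sizes differed, with 2.31 for TFH against naïve cells and 1.31 for both Treg and TFR against TFH cells, while TFR and Treg cells were at 0.0 from each other.

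Il15ra encodes the chain that binds IL-15 and also presents it to neighboring cells. Its brighter probe (chr2:11655416-11655475 in NCBI37) gave 15091 and 22902 RU in naïve, 14206 and 23841 RU in TFH, 17088 and 18521 RU in Treg, and 16351 and 19902 RU in TFR cells, so that the ranges of the cell types overlapped. The means of the cell types lay within 0.06 of each other, and no pair was called. The 95% intervals ran from -0.47 to 0.44 for TFH against naïve cells and from -0.52 to 0.40 for Treg against naïve cells. Naïve and TFH cells were lower at d12 than the Foxp3+ cells and higher at d25, and these 2 arrays of d25 shared a slide. The dimmer probe (chr2:11654809-11654868 in NCBI37) gave 218 and 308 RU in naïve, 265 and 337 RU in TFH, 361 and 388 RU in Treg, and 311 and 430 RU in TFR cells. By this probe both Foxp3+ populations were above both Foxp3- populations within each day, by 0.73 and 0.33 for Treg and 0.51 and 0.48 for TFR against naïve cells, and by 0.44 and 0.20 for Treg and 0.23 and 0.35 for TFR against TFH cells. The brighter probe did not show this at d25.

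Il7r, the private chain of the IL-7 receptor and a mark of naïve and memory T cells, fell the most in TFH cells. Its signal was 41516 and 45404 RU in naïve, 1060 and 2539 RU in TFH, 9814 and 12081 RU in Treg, and 5332 and 9325 RU in TFR cells (probe at chr15:9435976-9436035 in NCBI37). The order naïve, Treg, TFR, TFH held at both days. TFH cells were 26.5-fold below naïve cells (-4.73 ± 0.29, adjusted p = 0.000499), with -5.29 at d12 and -4.16 at d25. TFR cells were below Treg cells by -0.63 ± 0.29 only, which was not called (adjusted p = 0.151, 95% interval from -1.39 to 0.13). TFR cells were 4.30-fold above TFH cells (2.10 ± 0.29, adjusted p = 0.0108). That call was lost without the d12 TFR (adjusted p = 0.0795) or the d25 TFR array (adjusted p = 0.0890) and with slide as a block (adjusted p = 0.0593), while the value stayed between 1.68 and 2.53. Treg cells were 3.99-fold below naïve cells (-2.0 ± 0.29, adjusted p = 0.0206). This call was lost when any of the naïve, Treg, or TFR arrays was omitted, with adjusted p from 0.0552 without the d25 naïve array to 0.144 without the d25 Treg array, and with slide as a block (adjusted p = 0.120).

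Il4ra encodes the chain that binds IL-4 and also serves the IL-13 receptor, and it fell in both follicular populations. Naïve cells were at 4845 and 5606 RU, TFH cells at 174 and 328 RU, Treg cells at 4887 and 4917 RU, and TFR cells at 1098 and 901 RU (probe at chr7:132722922-132722981 in NCBI37). Naïve and Treg cells were not called as different, at -0.09 ± 0.29 with a 95% interval from -0.85 to 0.67, and TFR cells lay between them and TFH cells. Il4ra was 21.8-fold lower in TFH than in naïve cells (-4.45 ± 0.29, adjusted p = 0.000582) and 4.93-fold lower in TFR than in Treg cells (-2.30 ± 0.29, adjusted p = 0.0053). TFR cells were above TFH cells by 2.06 ± 0.29 (adjusted p = 0.0114), which was lost without the d12 TFR array (adjusted p = 0.0837). The second probe lies at chr7:132712550-132712609 in NCBI37 and gave 1800 and 2090 RU in naïve, 200 and 272 RU in TFH, 1728 and 1891 RU in Treg, and 517 and 417 RU in TFR cells. The order was the same with it, but the differences were smaller, at -3.06 for TFH against naïve, -1.96 for TFR against Treg, and 0.99 for TFR against TFH cells.

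Il9r encodes the private chain of the receptor for IL-9 and was the receptor gene that was highest in TFH cells. Its brighter probe (chr11:32090499-32090558 in NCBI37) stayed at the floor of 20 RU in naïve cells, where neither array had it well above background. It gave 827 and 1416 RU in TFH cells, 100 and 102 RU in Treg cells, whereas TFR cells gave 268 and 303 RU, with no overlap between cell types. Against naïve cells only bounds can be given, for which the lowest signal well above background on the array replaces the floor. On that basis Il9r was at least 18.5-fold higher in TFH (adjusted p = 0.00018 in the fit), at least 4.88-fold higher in TFR (adjusted p = 0.000339), and at least 1.73-fold higher in Treg than in naïve cells (adjusted p = 0.00566). These p-values are from the fit with both naïve arrays at 20 RU and do not belong to the bounds. The floor values also enter the standard errors and p-values of the other Il9r differences. The call for Treg against naïve cells was lost with normexp background correction (0.53, adjusted p = 0.130), a value below the bound of 0.79 on the log2 scale. The bounds thus hold for the main processing only. The call was lost, too, without the filter on dim genes (adjusted p = 0.0559) and with the mean of both probes (1.1, adjusted p = 0.102). It was also lost without the d12 Treg array, where the difference was 2.19. TFR cells were above Treg cells by 1.5 ± 0.21 (2.82-fold, adjusted p = 0.00722) and below TFH cells by -1.92 ± 0.21 (3.80-fold, adjusted p = 0.00593). The first of these calls was lost without the d12 TFR (adjusted p = 0.0612), the d25 Treg (adjusted p = 0.0544), or the d25 TFR array (adjusted p = 0.0551), and the second without the d12 TFR (adjusted p = 0.059) or the d25 TFR array (adjusted p = 0.0595). The other probe (chr11:32089002-32089061 in NCBI37) was well above background on the d25 TFH array alone, where it read 130 RU, and ranged from 32 to 48 RU on the other 7 arrays. Its differences between the other cell types are therefore not read. At d12 this probe read 42 RU in TFH and 48 RU in naïve cells, and thus did not show the rise of the brighter probe. With the mean of both probes, TFR cells were above Treg cells by 0.61 (adjusted p = 0.181).

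Il21r, the private chain of the receptor for IL-21, varied little but in the same sense as Il2rg. Naïve cells were at 12346 and 13788 RU, TFH cells at 7869 and 8682 RU, Treg cells at 12234 and 12021 RU, and TFR cells at 8750 and 8692 RU (probe at chr7:132776725-132776784 in NCBI37). Both follicular populations lay below both non-follicular ones without overlap. The difference was -0.66 ± 0.09 for TFH against naïve cells (1.58-fold, adjusted p = 0.00533) and -0.48 ± 0.09 for TFR against Treg cells (1.39-fold, adjusted p = 0.0173). The latter call was lost when any of the 4 Treg and TFR arrays was omitted, with adjusted p between 0.0679 and 0.110. TFR and TFH cells differed by 0.08 ± 0.09 with a 95% interval from -0.17 to 0.32. Of all pairs among the 8 receptor genes, Il2rg and Il21r had the most similar profile, with a root mean square difference of 0.262 between their log2 values over the 8 arrays after each gene was centered on its mean, as compared to 0.815 for Il4ra and Il7r.

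Treg and TFH cells, which differ in both Foxp3 and the follicular phenotype, were furthest apart in Il2ra (115-fold higher in Treg, adjusted p = 0.000153) and Il4ra (20.5-fold higher, adjusted p = 0.000806). Il7r was 6.64-fold higher in Treg cells (adjusted p = 0.00281), Il2rg 2.28-fold (adjusted p = 0.00234), Il2rb 1.66-fold (adjusted p = 0.012), and Il21r 1.47-fold (adjusted p = 0.0103), while Il9r was lower by -3.42 on the log2 scale (adjusted p = 0.000666). The call of Il2rb was lost without the d12 TFH (adjusted p = 0.0578) or the d12 Treg array (adjusted p = 0.056), and that of Il21r without the d12 Treg array (adjusted p = 0.0736). TFR cells were above naïve cells in Il2ra by 75.8-fold (adjusted p = 7.16e-05) and below them in Il7r by 6.16-fold (adjusted p = 0.00232), in Il4ra by 5.24-fold (adjusted p = 0.00302), and in Il21r by 1.5-fold (adjusted p = 0.00693). The last of these was lost without the d25 TFR array (adjusted p = 0.0559). Il2rg was 1.39-fold lower in TFR than in naïve cells (adjusted p = 0.025), a call lost without any naïve or Treg array or the d12 TFR array, with adjusted p from 0.053 to 0.135.

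**Figure D2:**
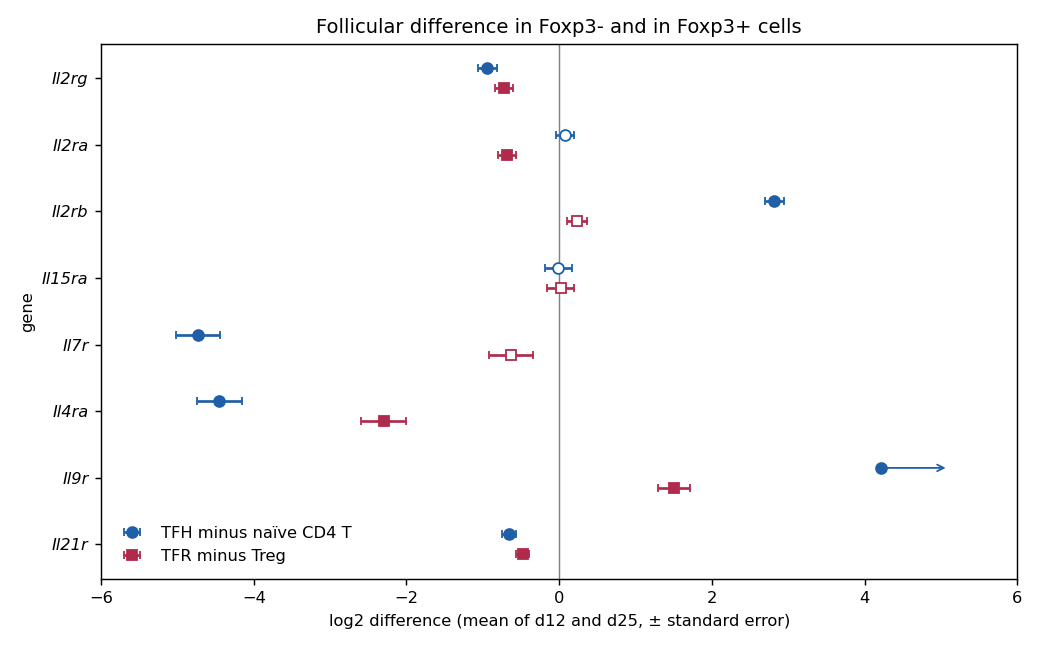
Log2 difference of each receptor gene between TFH and naïve CD4 T cells (circles) and between TFR and Treg cells (squares), with standard errors, filled where called. For Il9r in TFH cells the arrow starts at the bound of 4.21. The follicular difference of Il2rb, Il7r, Il4ra and Il9r is larger in Foxp3- than in Foxp3+ cells, whereas those of Il2rg and Il21r lie close together. The follicular difference of the markers Pdcd1, Cxcr5 and Bcl6, not shown, is also larger in Foxp3- cells.

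Whether the follicular difference was the same in Foxp3+ and Foxp3- cells was tested as TFR minus Treg minus the difference of TFH and naïve cells. It differed for 4 of the 8 receptor genes, with 8.49% of all genes tested called, and for 2 of 8 without any 1 of the Treg and TFR arrays. Il2rb rose by 2.82 in TFH cells but hardly in TFR cells, so that the difference was -2.60 ± 0.18 (adjusted p = 0.00517), and it was called in each of the 18 alternative settings. For Il7r the difference was 4.10 ± 0.42 (adjusted p = 0.0107), which was lost without any of the 4 Treg and TFR arrays (adjusted p from 0.054 to 0.0689). The fall of Il4ra was smaller in TFR cells, with a difference of 2.14 ± 0.41 (adjusted p = 0.0463). That call was lost without any of the naïve, Treg, or TFR arrays (adjusted p from 0.0973 to 0.166), with slide as a block (adjusted p = 0.0511), with spots excluded by software flags alone (adjusted p = 0.0539), without the filter on dim genes (adjusted p = 0.195), and with the mean of both probes (1.62, adjusted p = 0.0565). By its second probe alone the difference was 1.09. The fitted difference of Il9r was -4.26 ± 0.30 (adjusted p = 0.00517), and with naïve cells at their bound it was -2.71. Il2ra, at -0.76 ± 0.16 (adjusted p = 0.060), was not called but passed with scaling alone in place of quantile normalization (adjusted p = 0.0323), among genes well above background on all arrays (adjusted p = 0.0475), and with a trended and robust variance prior (adjusted p = 0.0357). Il2rg, Il15ra, and Il21r had differences of 0.22 ± 0.17, 0.03 ± 0.25, and 0.18 ± 0.13 (adjusted p = 0.489, 0.949, and 0.461). The follicular markers were called in the same test, with -2.52 for Pdcd1, -3.85 for Cxcr5, and -1.55 for Bcl6. So were Ccr7 (2.45) and Klf2 (1.92), which fell less in TFR than in TFH cells. Treg cells differed from naïve cells by 3.55 in Il2rb and -2.0 in Il7r, but by -0.09 in Il4ra. The part of the wider gate of TFR cells in these differences was not tested.

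Between d12 and d25 none of the 8 receptor genes was called by limma, and 0.0698% of all genes tested were. At an unadjusted p under 0.05 there were 3, Il2ra (0.25 ± 0.08), Il7r (0.62 ± 0.21), and Il15ra (0.44 ± 0.13), with adjusted p = 0.135, 0.140, and 0.117, while 28.8% of all genes tested passed that unadjusted threshold. For 4 of the genes the largest step between the days was that of TFH cells, in which Il7r was higher at d25 by 1.26, Il4ra by 0.91, Il9r by 0.78, and Il15ra by 0.75. On this same array 5 of the 7 B cell markers were brightest, with Cd79a at 1822 as compared to 255 RU at d12, and Ms4a1 at 2738 as compared to 246 RU, whereas Cd79b, at 6845 RU as compared to 1043 RU, was brighter in Treg cells (7083 and 7547 RU). The part of such cells in these signals was not tested. Without the d25 TFH array, the differences of TFH from naïve cells kept all 6 calls.

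The cytokines of the family showed a different distribution from their receptors. Of the 6 ligand genes, Il7, Il9, and Il15 did not pass the filter on dim genes and were not tested. Il4 was at 68122 and 74904 RU in TFH, 12567 and 12554 RU in TFR, 843 and 451 RU in naïve, and 547 and 210 RU in Treg cells. It was thus 116-fold higher in TFH than in naïve cells (6.86 ± 0.41, adjusted p = 0.000451), opposite to Il4ra, and 37.1-fold higher in TFR than in Treg cells (adjusted p = 0.00172). Il21 was at 23722 and 26344 RU in TFH, 1556 and 2386 RU in TFR, 258 and 182 RU in naïve cells, and at the floor in Treg cells. The rise was 115-fold in TFH over naïve cells (6.85 ± 0.27, adjusted p = 0.000188) and at least 36.3-fold in TFR over Treg cells (adjusted p = 0.000479 in the fit, with Treg cells at the floor). This bound of 5.18 on the log2 scale holds for the main processing only, since the lowest Il21 difference under the alternatives was 3.69. The study found almost no IL-4 protein in Foxp3+ cells of pLN after stimulation. It reports substantial Il4 and Il21 only for TFR cells of Peyer's patches. The part of TFH cells left in the TFR sort in these signals was not tested. Il2 was at 1376 and 988 RU in TFH, 805 and 632 RU in naïve, 69 and 83 RU in Treg, and 63 and 54 RU in TFR cells, and was thus low in both populations in which Il2ra was high. It was 19.9-fold lower in TFR than in TFH cells (-4.31 ± 0.20, adjusted p = 0.00074). The TFR values lay just above the lowest signals well above background on these arrays (52.4 and 41.1 RU). Under the alternatives, Il2 differed between TFR and TFH cells by -4.53 to -2.59. Its rise in TFH over naïve cells (0.71 ± 0.20, adjusted p = 0.0381) was lost without any of the TFH, naïve, or TFR arrays (adjusted p from 0.0523 without the d25 TFH to 0.173 without the d25 naïve array).

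Among the 29 tested ligands, partner chains, kinases, suppressors, adaptors, and targets of the pathway, 14 were called between TFH and naïve cells (4 higher, 10 lower), 16 between TFR and Treg cells (5 higher, 11 lower), and 11 between TFR and TFH cells (7 higher, 4 lower). Over all genes tested, 46.5%, 39.6%, and 22.1% were called in these comparisons. The count for TFR against Treg cells was 6 or 7 without any of the 4 Treg and TFR arrays, and the count for TFR against TFH cells was 7 without the d12 TFR array. That for TFH against naïve cells was 9 without the d12 naïve array. Crlf2, the partner of Il7r in the receptor for TSLP, rose in both follicular populations, by 1.01 in TFH over naïve (adjusted p = 0.00258) and by 0.65 in TFR over Treg cells (adjusted p = 0.0124). The latter was lost without the d12 Treg (adjusted p = 0.0584), d25 Treg (adjusted p = 0.082), or d25 TFR array (adjusted p = 0.079).

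The kinases and STATs differed little. Between TFR and TFH cells none of the 7 was called, between TFH and naïve cells Stat6 was lower (-0.37), and between TFR and Treg cells 3 were lower, of which Jak1 and Stat6 are described (-0.53 and -0.38). The median size of their difference was 0.23 in TFH against naïve and in TFR against Treg cells, as compared to 0.44 and 0.38 over all genes tested. Jak1, which binds the private chains, was at 56749 and 67795 RU in TFR and 85143 and 93729 RU in Treg cells (adjusted p = 0.0239), but this was lost without any of these 4 arrays (adjusted p from 0.0696 to 0.137).

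By contrast, Cish and Socs2, which encode feedback suppressors induced through STAT5, were high in the populations in which Il2ra was high. Cish was at 31471 and 34636 RU in Treg, 26696 and 30295 RU in TFR, 2282 and 3297 RU in naïve, and 686 and 724 RU in TFH cells. It was 40.4-fold higher in TFR than in TFH cells (5.33 ± 0.14, adjusted p = 0.000453), and it was lower in TFH than in naïve cells by -1.96 ± 0.14 (adjusted p = 0.000672). Socs2 was at 9976 and 10036 RU in Treg, 2912 and 3984 RU in TFR, 159 and 260 RU in naïve, and 80 and 171 RU in TFH cells. It was 29.2-fold higher in TFR than in TFH cells (4.87 ± 0.27, adjusted p = 0.00104), and from 3.57 to 5.22 on the log2 scale under the alternatives. Cish and Socs2 were the only 2 of the 6 suppressors called between TFR and TFH cells, where 22.1% of all genes tested were called. Socs2 was lower in TFR than in Treg cells by -1.55 ± 0.27 (adjusted p = 0.0115), which was lost without the d12 Treg (adjusted p = 0.0524), the d12 TFR (adjusted p = 0.0719), or the d25 TFR array (adjusted p = 0.0839). Of the adaptors, Pik3r1, which encodes a regulatory subunit of PI3 kinase, was at 1191 and 1601 RU in naïve, 417 and 500 RU in TFH, 1573 and 1730 RU in Treg, and 688 and 761 RU in TFR cells. It was lower in TFH than in naïve cells by -1.6 ± 0.11 (adjusted p = 0.000616) and in TFR than in Treg cells by -1.19 ± 0.11 (adjusted p = 0.00235).

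Of the 8 survival and growth targets, 4 were higher and 1 was lower in TFR than in TFH cells, with 22.1% of all genes tested called. In TFH against naïve cells, 4 were lower and none was higher, with 46.5% of all genes called. Between TFR and Treg cells, 2 were higher and 4 were lower in TFR cells, with 39.6% of all genes called. Bcl2, which encodes a survival factor downstream of IL-7, was at 4731 and 4736 RU in naïve, 1226 and 1924 RU in TFH, 7021 and 7491 RU in Treg, and 1213 and 1351 RU in TFR cells. Bcl2 fell in both follicular populations, by -1.62 ± 0.18 in TFH (adjusted p = 0.00239) and by -2.50 ± 0.18 in TFR cells (adjusted p = 0.00135). Bcl2l1, which encodes the related survival factor BCL-XL, was at 2500 and 3370 RU in naïve, 3025 and 2200 RU in TFH, 6872 and 7428 RU in Treg, and 12985 and 13849 RU in TFR cells. It was 5.20-fold higher in TFR than in TFH cells (2.38 ± 0.22, adjusted p = 0.00352). Myc, a driver of growth, was lower in TFH than in naïve cells by -2.69 ± 0.20 (adjusted p = 0.000791) and higher in TFR than in TFH cells by 2.01 ± 0.20 (adjusted p = 0.0044), the latter with adjusted p = 0.0529 without the d12 TFR array. Prdm1, which encodes BLIMP-1 and opposes BCL6, was at 572 and 531 RU in TFH and 2767 and 4358 RU in TFR cells (2.66 ± 0.22, adjusted p = 0.00262).

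**Figure D3:**
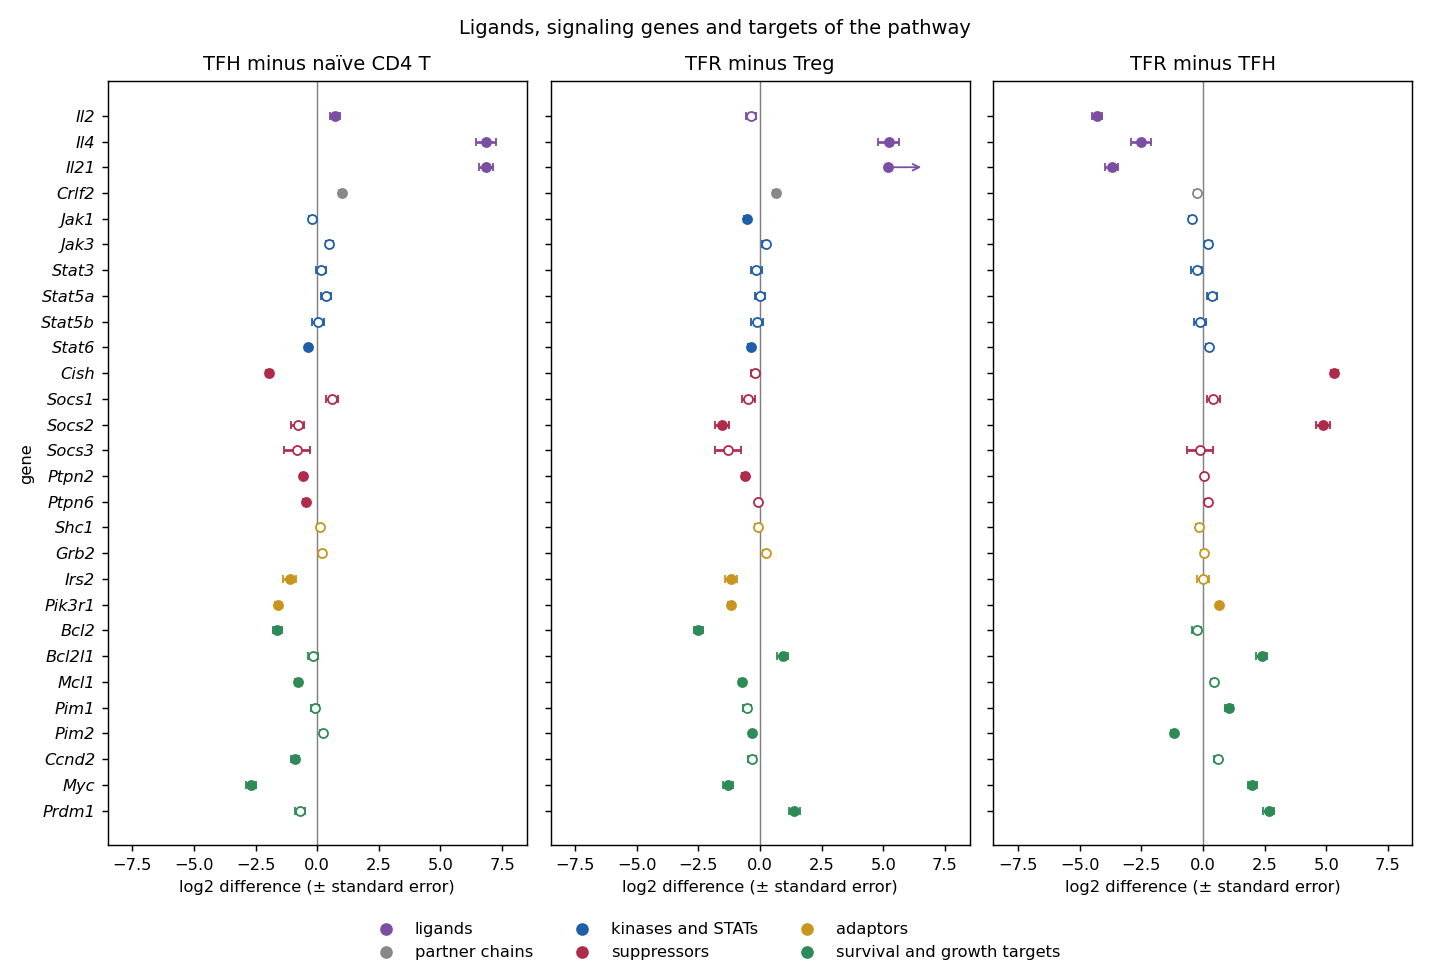
Log2 differences with standard errors of the tested pathway genes that are named for 3 comparisons, colored by list and filled where called. The arrow of Il21 starts at its bound. The ligands Il4 and Il21 rise in both follicular populations, the kinases and STATs shown lie between -0.53 and 0.49, and Cish and Socs2 separate TFR from TFH cells.

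For each receptor gene called in at least 1 pair of cell types, the 3 genes with the most similar profile were taken by the root mean square difference of centered log2 values over the 8 arrays. The profile of Il4ra was closest to Ccr7 (0.242) and also close to Gpr18 (0.275). Ccr7 encodes a chemokine receptor that guides naïve T cells into lymph nodes. Its geometric mean was 176882 RU in naïve, 6311 RU in TFH, 115360 RU in Treg, and 22473 RU in TFR cells. Il9r was closest to Maf (0.362), the transcription factor that drives Il4 and Il21 in TFH cells, followed by CB193388 (0.427) and Ptpn13 (0.514). The naïve values of Il9r stood at the floor, so that these distances depend on the floor. Maf had geometric means of 1354 RU in naïve, 47802 RU in TFH, 5559 RU in Treg, and 23462 RU in TFR cells. The probe of CB193388 (chr8:118225329-118225388 in NCBI37) lies close to that of Maf (chr8:118227736-118227795). Whether both report the same transcript was not tested.

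Il2ra was closest to Il1rl1 (0.715), which encodes the IL-33 receptor ST2, to Socs2 (0.829), and to Entpd1 (0.904), which encodes CD39. Il7r was closest to Wscd2 (0.447), BC094916 (0.566), and Pid1 (0.594), and Il2rb to Gm3373 (0.274), Mdfic (0.301), and 4930431P03Rik (0.322). The smallest distances were found for the genes that varied least, Il2rg with Irf9 (0.088), Zfp281 (0.095), and Sun1 (0.108), and Il21r with Ddx18 (0.036), ENSMUST00000169624 (0.056), and Tpm3 (0.058). These distances describe 8 arrays of 4 cell types and depend on the size of a change as well as its shape. When genes were ranked by Pearson correlation instead, 2 of the 21 genes were again among the closest 3, Entpd1 for Il2ra and Ddx18 for Il21r.

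**Figure D4:**
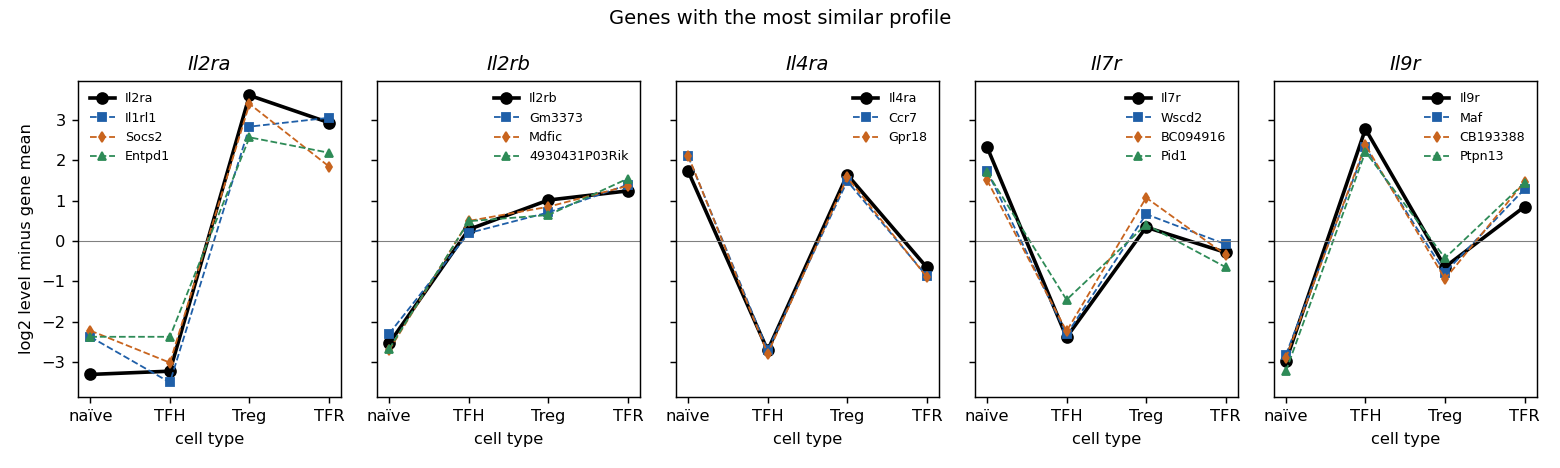
Mean log2 level per cell type, centered on the mean of the 4 cell types, for 5 receptor genes (black) and the named genes with the most similar profile (colored). Il4ra runs with Ccr7 and Gpr18, and Il9r with Maf.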

How the data were processed

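Cells sorted from pLN were hybridized on 8 one-color arrays, 1 per cell type and day. The authors extracted spot intensity values (background-corrected signal, Agilent Feature Extraction 10.7.3.1 by the submitters' processing notes) and deposited them with a table of normalized intensity values. Here, spots were excluded when the software flagged them, when they lay beyond 1.42 times the interquartile range over the 4 spots of a probe, or with a pixel coefficient of variation above 0.5, which retained 86.45% to 89.18% per array. Spots were averaged by the geometric mean, and probes were quantile normalized, scaled to a 75th percentile of 1500, and floored at 20. These log2 values correlated with the authors' deposited table at r of at least 0.999364 on each array.

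A gene was tested if its brightest probe exceeded background by the software's criterion (in more than 50% of its retained spots) at both days in 1 or more cell types, which left 15763 of 29924 genes. Linear models of cell type and day were fitted in R 4.3.3 (limma 3.58.1), with 3 residual degrees of freedom, and the code was tested on simulated data. With 1 pool per cell type and day, p-values measure the spread that the model leaves, into which changes with time enter where they differ between cell types. The deposited arrays analysed here number 1 per cell type and day, fewer than the experiments the study names. Where neither array of a cell type had a probe well above background, a lower bound was formed from the lowest signal well above background on each array (49.9 and 68.2 RU in naïve cells). It limits the fold between means in the main processing only. That signal is no limit of detection, since Ikzf2 at 81 RU in naïve cells at d12 was not well above background. The 18 alternatives changed normalization, background correction, spot and gene filters, probes, model terms, or left out an array. In the latter, a cell type with 1 array is assumed to vary like the others. Named genes are the 8 receptor genes, fixed pathway lists, and the 3 genes of most similar profile. The members and lists were chosen with earlier results of these data known. Values of 3 genes of these lists are not reported here. Positions are those of the files in NCBI37.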

Additional observations from a re-analysis of the deposited data

Results flagged for a closer look

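The change from naïve to TFH cells and that from Treg to TFR cells differed by the test of the difference itself for 4 receptor genes. The difference, Foxp3+ minus Foxp3-, was -2.60 for Il2rb, 2.14 for Il4ra, 4.10 for Il7r, and -4.26 for Il9r on the log2 scale. As given above, the calls of Il4ra and Il7r were not kept in all alternatives, and the second probe of Il4ra gave 1.09. For Il9r the naïve arrays were at the floor, and with the bound of 4.21 for TFH over naïve cells and 1.5 for TFR over Treg cells the difference was -2.71. Both days showed the same direction for each of the 4 genes, with -2.75 and -2.44 for Il2rb, 2.64 and 1.65 for Il4ra, and 4.41 and 3.79 for Il7r. For Il9r the days gave -2.18 and -3.26 with naïve cells at their bound. The follicular markers Pdcd1, Cxcr5, and Bcl6 were also called in this test, at -2.52, -3.85, and -1.55.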

How the results depend on the processing

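Of the 34 calls among the 48 differences of the receptor genes between cell types, 20 were kept in each of the alternatives that could be computed and 14 were lost in at least 1. All 6 calls of TFH against naïve cells were kept, but Il9r could not be tested where genes had to be well above background on all arrays. Over 1128 values of receptor genes under alternatives, 1018 kept direction and side of the threshold, 67 lost the call, 7 gained it, and 36 changed sign, none of the latter in a called difference. These counts leave out the second probes taken alone, of which the dim probe of Il9r turned the sign of 3 called differences. Without the filter on dim genes, the number of receptor genes called fell to 1 for TFR against TFH cells, 2 for Treg against naïve cells, and 2 for the difference of the follicular changes, and the number of pathway genes for TFR against Treg cells to 7. With slide as a block it was 3 for TFR against TFH cells. Leaving out 1 array gave 1 to 5 receptor genes for TFR against Treg, 1 to 5 for TFR against TFH, 2 to 4 for Treg against naïve cells, and 2 to 4 for the difference of the follicular changes. For pathway genes it gave 9 to 17 for TFH against naïve, 6 to 17 for TFR against Treg, and 7 to 14 for TFR against TFH cells.

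The sign changes, apart from those of the dim probe of Il9r, concerned differences that were not called. For Il15ra, the mean of all probes gave 0.10 for TFH against naïve, -0.01 for TFR against Treg, 0.13 for TFR against TFH, 0.23 for Treg and for TFR against naïve, 0.14 for Treg against TFH cells, and -0.10 for the difference of the follicular changes. Slide as a block gave 0.21, 0.17, 0.19, and 0.19 for TFR against TFH, Treg against naïve, TFR against naïve, and Treg against TFH cells. Leaving out 1 array gave -0.22 to 0.19 for TFH against naïve, -0.19 to 0.23 for TFR against Treg, -0.24 to 0.18 for TFR against TFH, -0.28 to 0.15 for Treg against naïve, -0.15 to 0.07 for TFR against naïve, -0.26 to 0.17 for Treg against TFH cells, and -0.18 to 0.25 for the follicular changes. For Il4ra in Treg against naïve cells the values were 0.26 with slide as a block and -0.22 to 0.05 without 1 array, and for Il2ra in TFH against naïve cells -0.10 with normexp. For d25 against d12, scaling alone gave -0.08 for Il2rb and -0.01 for Il21r, and leaving out 1 array gave -0.01 to 0.13 for Il2rb and -0.02 to 0.38 for Il4ra. The dim probe of Il9r gave -0.41 for TFR against naïve, -0.28 for TFR against Treg, and -0.13 for Treg against naïve cells, where the brighter probe gave called differences. The dim probe was well above background on 1 of 8 arrays. Among the pathway genes, leaving out 1 array gave -0.51 to 0.17 for Bcl2l1 in TFH against naïve cells and -0.55 to 0.02 for Bcl2 in TFR against TFH cells. These alternatives for the pathway genes were chosen after seeing the data. The causes were not tested. Day stands in the model as the term that pairs the arrays, and slide as a further block is among the alternatives.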
